A study of Mus musculus with 9 samples.

Results

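Forkhead genes encode transcription factors that share a winged-helix DNA-binding domain, and their starts were read in chromatin from MYCN-driven T-cell lymphoma of the mouse. The members were every RefSeq protein-coding gene of GRCm38.p6 whose symbol is Fox, 1 letter from a to s, and digits only. This gave 44 of 21883 genes. By background knowledge, 3 members (Foxo1, Foxp1 and Foxm1) were taken as haematopoietic, 10 as widely expressed or lymphoid (Foxj2, Foxj3, Foxk1, Foxk2, Foxn2, Foxn3, Foxo3, Foxo4, Foxp3 and Foxp4), and the other 31 as developmental or tissue-restricted, called developmental here. The lymphoma cells came from the thymus of C57BL/6J mice, and all libraries share this strain, tissue and tumour type. Chromatin was profiled by ChIPmentation, in which a transposase adds sequencing adapters to antibody-bound chromatin, with antibodies to EZH2, SUZ12, H3K27me3, N-MYC, p300, H3K27ac and H3K4me3. The series held 9 samples, 7 of them immunoprecipitations with 1 library per antibody and 2 inputs without antibody, which were not analysed here. The driver of the MYCN transgene, the age of the mice and the number of animals behind each library are not given in the sources used here. Since each antibody had 1 library, nothing below could be checked against replicates, and no test was run.

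The letter in a forkhead gene's name marks its subfamily. FOXA proteins open chromatin in the endoderm, and FOXC, FOXD and FOXF proteins pattern mesoderm and neural crest. In lymphocytes FOXO1 and FOXP1 maintain quiescence and homing, FOXM1 drives genes of mitosis in dividing cells, FOXP3 defines regulatory T cells, and FOXN1 is the master factor of thymic epithelium rather than of T cells. Developmental regulators of this kind are textbook targets of Polycomb repressive complex 2, in which EZH2 is the methyltransferase and SUZ12 a core subunit, and which deposits H3K27me3. H3K4me3 marks active or poised promoters, H3K27ac marks active promoters and enhancers, and p300 is an acetyltransferase that writes H3K27ac. The title of the series concerns EZH2 as an activator under MYCN, so the question here was at which forkhead genes EZH2 was called with its Polycomb partners and at which it was called with active marks.

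Promoter windows of 6 members show the sequences behind the main patterns, from 250 bases before to 50 bases after a RefSeq start site on GRCm38.p6, written 5′ to 3′ on the gene's strand with every CpG dinucleotide in capitals. Foxo1 (chr3:52268087-52268386, plus strand) carried active marks with EZH2 at its start. Foxp1 did so at its annotated 5′ end, but its window (chr6:99520944-99521243, minus strand) belongs to a start listed 1.75 kb inside the gene, where small SUZ12 and H3K27me3 peaks were called as well. Foxd1 (chr13:98353995-98354294, plus strand) and Foxl2 (chr9:98955357-98955656, plus strand) had the highest EZH2 fold enrichments of the family, together with SUZ12 and H3K27me3. Foxi1 (chr11:34208040-34208339, minus strand) had H3K27me3 alone, and Foxn1 (chr11:78386559-78386858, minus strand) had no peak at its annotated 5′ end. The Foxn1 window belongs to a start listed 0.17 kb inside the gene, and a weak H3K27ac peak (2.84) was called within 1 kb of that start.
Foxo1: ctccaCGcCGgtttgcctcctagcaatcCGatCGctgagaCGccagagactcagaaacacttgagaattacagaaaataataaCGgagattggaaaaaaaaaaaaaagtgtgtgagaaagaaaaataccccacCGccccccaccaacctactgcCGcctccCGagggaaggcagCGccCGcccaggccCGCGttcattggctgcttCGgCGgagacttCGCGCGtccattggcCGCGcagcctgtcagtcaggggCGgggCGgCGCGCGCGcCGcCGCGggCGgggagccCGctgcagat
Foxp1: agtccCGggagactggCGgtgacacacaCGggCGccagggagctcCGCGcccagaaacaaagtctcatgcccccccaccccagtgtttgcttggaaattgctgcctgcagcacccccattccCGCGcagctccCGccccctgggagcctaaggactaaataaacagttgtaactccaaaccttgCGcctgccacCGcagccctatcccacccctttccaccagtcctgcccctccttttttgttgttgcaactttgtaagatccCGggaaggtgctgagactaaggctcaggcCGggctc
Foxd1: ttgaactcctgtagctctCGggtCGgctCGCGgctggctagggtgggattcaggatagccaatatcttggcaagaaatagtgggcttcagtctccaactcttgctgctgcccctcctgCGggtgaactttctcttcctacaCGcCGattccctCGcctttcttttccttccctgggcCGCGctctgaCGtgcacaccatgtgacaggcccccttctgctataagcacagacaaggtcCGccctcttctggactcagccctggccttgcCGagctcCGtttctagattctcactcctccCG
Foxl2: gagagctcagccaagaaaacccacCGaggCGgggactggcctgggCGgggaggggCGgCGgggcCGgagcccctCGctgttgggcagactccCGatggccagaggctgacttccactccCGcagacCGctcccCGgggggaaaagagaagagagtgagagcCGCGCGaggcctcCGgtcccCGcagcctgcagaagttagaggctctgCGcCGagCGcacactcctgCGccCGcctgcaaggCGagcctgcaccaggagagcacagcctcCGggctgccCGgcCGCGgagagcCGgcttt
Foxi1: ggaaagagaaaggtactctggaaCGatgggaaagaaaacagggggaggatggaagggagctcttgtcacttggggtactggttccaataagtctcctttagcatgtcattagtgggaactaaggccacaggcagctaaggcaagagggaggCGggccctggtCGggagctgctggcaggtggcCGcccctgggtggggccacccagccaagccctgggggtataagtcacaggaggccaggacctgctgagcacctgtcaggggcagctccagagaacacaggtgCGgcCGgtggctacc
Foxn1: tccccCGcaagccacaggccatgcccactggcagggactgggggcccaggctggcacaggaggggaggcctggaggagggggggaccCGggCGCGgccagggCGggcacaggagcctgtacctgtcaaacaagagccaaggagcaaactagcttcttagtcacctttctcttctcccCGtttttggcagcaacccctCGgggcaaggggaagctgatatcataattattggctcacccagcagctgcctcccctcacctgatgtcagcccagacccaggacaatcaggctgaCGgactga
The windows held 31 CpG at Foxo1, 13 at Foxp1, 15 at Foxd1, 27 at Foxl2, 6 at Foxi1 and 8 at Foxn1, and none of the 6 held the letters CACGTG.

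A member counted as carrying a feature when a deposited peak overlapped the window of 1 kb either side of its start by at least 1 bp. For 28 members the strand was known from RefSeq promoter entries, and for the other 16 both ends of the gene were read. Fold enrichments are the authors' values per peak, and where several peaks met the window the highest is given. They are compared only within a list, since depth is not given and lists differ in antibody. Where a peak is missing, none was called, which does not show that the protein or mark was absent. All 10 fixed T-cell marker genes (such as Cd3d, Cd3e, Lck and Tcf7) carried both H3K4me3 and H3K27ac at the start. Both marks were met at 2 of 5 B-cell markers, 0 of 5 myeloid, 1 of 5 thymic epithelial, 0 of 5 stromal and 3 of 4 erythroid markers, and the part of other cells in the lists was not tested.

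The family split into 2 main chromatin states that largely followed the groups given above. Those groups were chosen with earlier results of these data known, so the match is a description and not independent support. EZH2, SUZ12 and H3K27me3 peaks were all present at 24 of the 44 starts, against 12.2% of all protein-coding genes, and all 24 belonged to developmental members. H3K4me3 and H3K27ac were both present at 14 starts, against 45.4% of all genes, at 3 of 3 haematopoietic, 9 of 10 widely expressed or lymphoid and 2 of 31 developmental members. With every member but the 3 haematopoietic ones taken as developmental, the last count was 11. EZH2 was called in both states, at 35 members (background 43.4%), of which 24 carried the other Polycomb features and 11 carried H3K4me3 and H3K27ac with neither.

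By list, SUZ12 was called at 24 members, or 54.5%, against 13.2% of all genes. H3K27me3 was called at 27 members, or 61.4%, against 25.4%. The shares in the 4 lists of active features lay below their backgrounds, but those of N-MYC, p300 and H3K4me3 lay near them. N-MYC peaks lay at 10 members, or 22.7%, against 31.0% of all genes. p300 peaks lay at 13 members, or 29.5%, against 37.4%. H3K27ac was called at 14 members, or 31.8%, against 49.8%, and H3K4me3 at 18 members, or 40.9%, against 48.9%. None of the 31 developmental members carried N-MYC at the start, whereas 3 of 3 haematopoietic and 7 of 10 widely expressed or lymphoid members did. With the summit of a peak required inside the window, all 3 Polycomb features were left at 8 members, against 5.63% of all genes, and H3K27me3 at 13, against 17.3%.

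**Figure D1:**
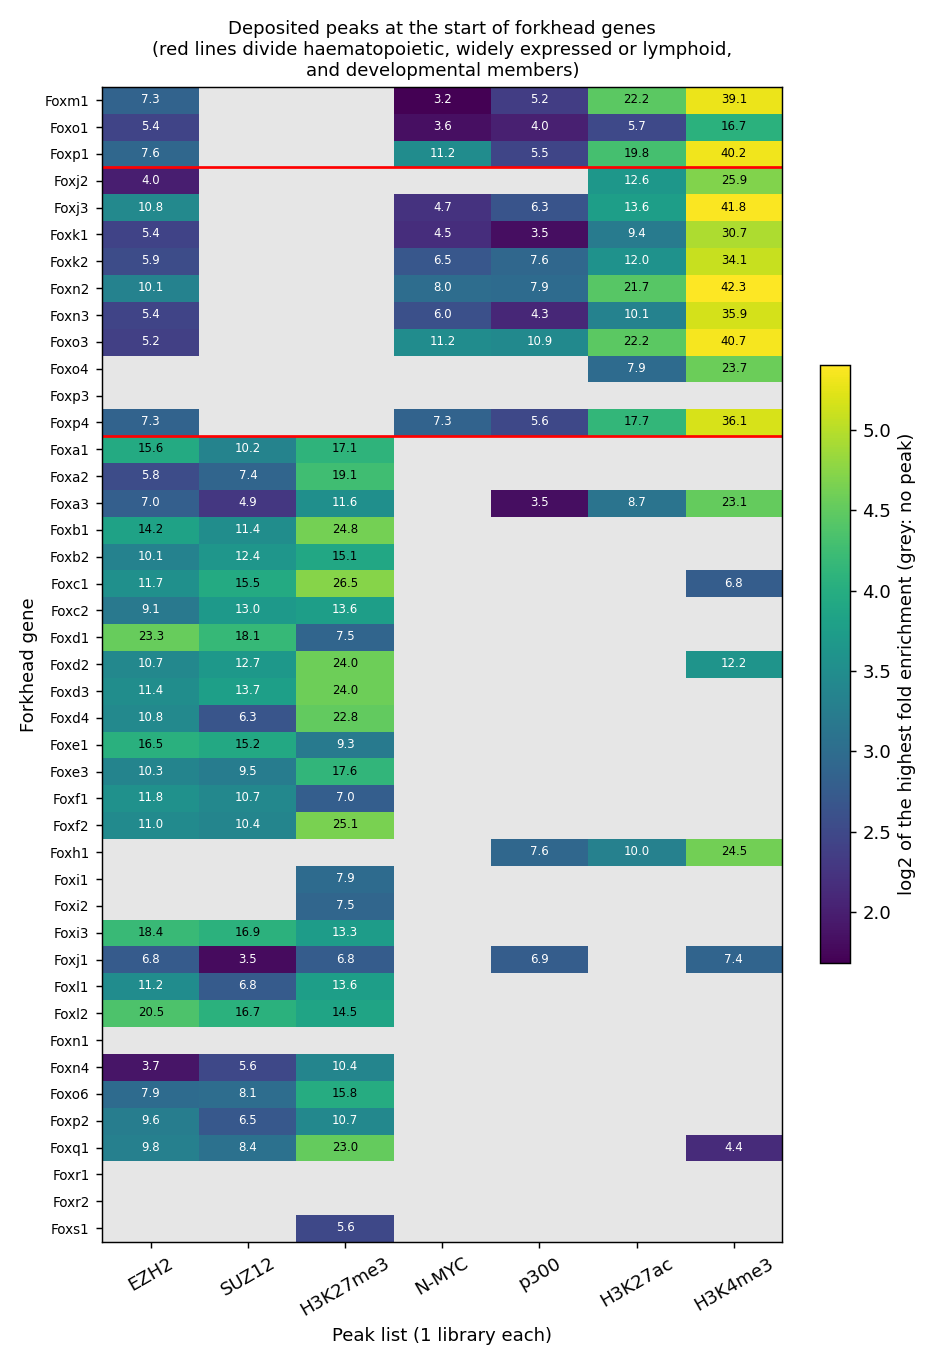
Highest fold enrichment of a deposited peak within 1 kb of the start for the forkhead genes reported by name (rows) in the 7 peak lists (columns), coloured on a log2 scale with the linear value printed and grey where no peak was called; each list is 1 library. Rows between the red lines are the widely expressed or lymphoid members, with the haematopoietic members above and the developmental members below, and SUZ12 and H3K27me3 fill only the lowest block.

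Among the haematopoietic members, all 3 had EZH2, N-MYC, p300, H3K27ac and H3K4me3 at the start, and none had SUZ12 or H3K27me3 there. At Foxp1, however, a small SUZ12 peak (3.62) ended just outside the window, inside the EZH2 peak of the start. The N-MYC calls at Foxo1 and Foxm1 were weak, and N-MYC was left at 1 of the 3 (Foxp1) with peaks of a fold of at least 4 (27.8% of all genes) or of a q of at most 1e-05 (28.8%). Foxp1, a regulator of T-cell quiescence on chromosome 6 from 98925342 to 99522746 (minus strand), had an EZH2 fold enrichment of 7.61, with N-MYC at 11.2, p300 at 5.52, H3K27ac at 19.8 and H3K4me3 at 40.2. Its N-MYC value ranked 481 among the 6784 genes with N-MYC at the start, within the upper 7.09%. Foxm1, the mitotic regulator on chromosome 6 from 128362994 to 128375886, had EZH2 at 7.31, N-MYC at 3.21, p300 at 5.15, H3K27ac at 22.2 and H3K4me3 at 39.1. All of these lay at its lower-coordinate end, while the other end had no peak. The start of Tex52 and an end of Rhno1 lie within the window at Foxm1, so the peaks cannot be assigned to 1 of these genes. Foxo1, on chromosome 3 from 52268337 to 52350109 (plus strand), had lower values than both in EZH2, p300, H3K27ac and H3K4me3, with EZH2 at 5.43, N-MYC at 3.56, p300 at 4.03, H3K27ac at 5.69 and H3K4me3 at 16.7.

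Foxo1 and Foxm1 thus had N-MYC peaks near the bottom of the list. Their ranks were 6484 and 6636 of 6784, against 480 for Foxo3 and 481 for Foxp1. For H3K27ac, Foxo1 ranked 9292 of 10892 genes while Foxm1 ranked 1096. H3K27me3 was also called upstream of Foxo1. With upstream positions negative, an H3K27me3 peak lay from -1.952 to -1.463 kb (fold enrichment 5.54) and 3 further ones lay between -9.663 and -6.615 kb (3.31 to 5.62). No SUZ12 peak was called from 10 kb before Foxo1 to 10 kb after it.

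Of the 10 widely expressed or lymphoid members, 8 had EZH2 with H3K4me3 and H3K27ac and without SUZ12 or H3K27me3. Including the haematopoietic genes this class held 11 of 44 members, near the 29.5% of all genes in it. Foxo3, which shares targets with FOXO1, had EZH2 at 5.25, N-MYC at 11.2, p300 at 10.9, H3K27ac at 22.2 and H3K4me3 at 40.7. Its p300 peak ranked 100 of 8185 genes. Foxn2 had EZH2 at 10.1, N-MYC at 8.04, p300 at 7.93, H3K27ac at 21.7 and H3K4me3 at 42.3, the highest H3K4me3 value of the family. Foxj3 had the highest EZH2 value in this class, 10.8, with N-MYC at 4.67, p300 at 6.26, H3K27ac at 13.6 and H3K4me3 at 41.8. The start of Frg2f1 lies in the same window.

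Foxp4 had EZH2 at 7.33, N-MYC at 7.31, p300 at 5.64, H3K27ac at 17.7 and H3K4me3 at 36.1. A small SUZ12 peak (2.96) that ended just outside its window overlapped this EZH2 peak. The forkhead-associated-domain factors FOXK1 and FOXK2, which bind DNA in most tissues, had similar starts, with no SUZ12 called there or over the gene. Foxk1 had EZH2 at 5.39, N-MYC at 4.52, p300 at 3.53 and H3K4me3 at 30.7, with H3K27ac at 7.03 at the same end and 9.36 at its other end. Foxk2 had EZH2 at 5.86, N-MYC at 6.45, p300 at 7.63, H3K27ac at 12.0 and H3K4me3 at 34.1. Foxn3, a repressor linked to the cell-cycle checkpoint, had EZH2 at 5.43, N-MYC at 6.00, p300 at 4.28, H3K27ac at 10.1 and H3K4me3 at 35.9.

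The remaining members of this group carried fewer features. Foxj2 was the 1 gene of the 11 with EZH2 (3.99), H3K27ac (12.6) and H3K4me3 (25.9) but without N-MYC or p300 at the start. Both factors were called together 6.5 kb downstream in Foxj2, where N-MYC reached 5.32 and p300 5.02. Foxo4, on the X chromosome, had H3K27ac at 7.90 and H3K4me3 at 23.7 and no EZH2, N-MYC or p300. Foxp3, also on the X chromosome from 7579676 to 7595243, had no peak in any of the 7 lists, at its start or over its body.

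The median EZH2 fold enrichment of the 11 active members was 5.86, beside 5.72 for all 6445 genes of that class. Their medians were 6.23 against 6.25 for N-MYC, 5.58 against 5.61 for p300, 13.6 against 15.1 for H3K27ac and 36.1 against 31.6 for H3K4me3. The members' medians thus lay close to those of the class in these 5 lists. The median distance between EZH2 and H3K4me3 summits was 185 bp at these members and 102 bp over the class. It ran from 42 bp at Foxn2 to 900 bp at Foxo1. The N-MYC summit lay 1 bp from the EZH2 summit at Foxn3, 5 bp at Foxp4, 77 bp at Foxm1 and 86 bp at Foxo1, and 2221 bp away at Foxo3, with a median of 347 bp beside 312 bp over the class. For p300 the median distance from the EZH2 summit was 296 bp beside 346 bp. For H3K27ac the median distance was 943 bp beside 138 bp over the class. The members' median counts Foxk1 at 62520 bp, since its highest H3K27ac peak (9.36) lay at the other end of the gene. With the H3K27ac peak at the EZH2 end of Foxk1 (7.03) in its place, that median would be lower.

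Of the 31 developmental members, 24 carried all 3 Polycomb features, and 19 of these had no active feature. Over all genes that second class held 7.39%, against 43.2% of the family. They included Foxa1, Foxa2, Foxb1, Foxb2, Foxc2, Foxd1, Foxd3, Foxd4, Foxe1, Foxe3, Foxf1, Foxf2, Foxi3, Foxl1, Foxl2, Foxn4, Foxo6 and Foxp2. Over the 24 members EZH2 fold enrichment ran from 3.73 at Foxn4 to 23.3 at Foxd1, with a median of 10.7 beside 6.56 for all 2660 genes with the 3 features. SUZ12 ran from 3.47 at Foxj1 to 18.1 at Foxd1, with a median of 10.3 beside 6.08. H3K27me3 ran from 6.79 at Foxj1 to 26.5 at Foxc1, with a median of 15.4 beside 13.1.

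**Figure D2:**
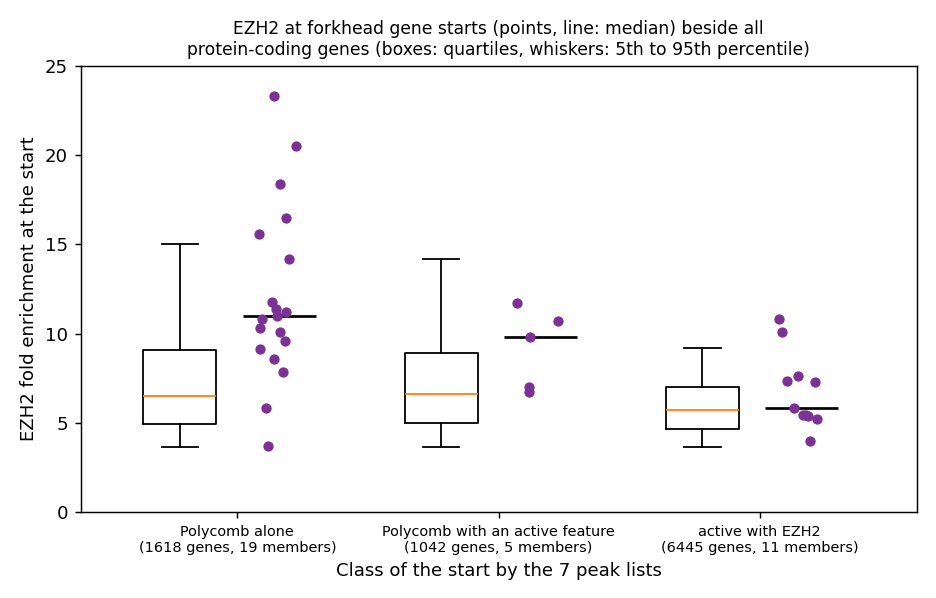
EZH2 fold enrichment (vertical axis, linear) at the start of forkhead genes in 3 classes of start (points; the black line is the members' median), beside all protein-coding genes of the class (boxes from the 25th to the 75th percentile with the median in orange, whiskers from the 5th to the 95th). Members with Polycomb features alone had a median of 11 against 6.53 for all genes of the class, while members active with EZH2 had 5.86 against 5.72.

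The 5 developmental members with the highest EZH2 values were Foxd1, Foxl2, Foxi3, Foxe1 and Foxa1. Foxd1, a regulator of kidney stroma and retina whose promoter is printed above, had EZH2 at 23.3 and SUZ12 at 18.1. It ranked 13 among the 9496 genes with EZH2 at the start and 21 among the 2895 with SUZ12. Its EZH2 peak ran over 11.1 kb (chr13:98350800-98361881), and its H3K27me3 peak was the widest of the family at 34.5 kb (chr13:98342715-98377257). The fold enrichment of that H3K27me3 peak was only 7.45, rank 3378 of 5560. Foxl2, a factor of the ovary and eyelid, had EZH2 at 20.5 (rank 35), SUZ12 at 16.7 and H3K27me3 at 14.5. Foxi3, an ectodermal factor of teeth and ear, had 18.4 (rank 62), 16.9 and 13.3.

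Foxe1, a thyroid factor, had EZH2 at 16.5, SUZ12 at 15.2 and H3K27me3 at 9.33. Foxa1, the endodermal pioneer factor, had EZH2 at 15.6, SUZ12 at 10.2 and H3K27me3 at 17.1. It carried the widest EZH2 peak of the family, 21.3 kb (chr12:57532493-57553800), and a SUZ12 peak of the same width. High EZH2 thus went with high SUZ12 but not with high fold enrichment of the H3K27me3 peak that met the window. The summit of that broad peak could lie far off, 16.9 kb from the start at Foxd1 and 9.0 kb from the nearer end at Foxe1. Across the 24 members Spearman's rho was 0.77 between EZH2 and SUZ12 and 0.02 between EZH2 and H3K27me3, beside 0.74 and 0.34 across the 2660 genes. These are descriptions across genes read in the same 3 libraries, and genes are not independent replicates. The width of the H3K27me3 peak had a rho of 0.53 with EZH2 fold enrichment over the members and 0.45 over all genes of the class.

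The members highest in H3K27me3 were not those highest in EZH2. Foxc1, a mesodermal and eye factor, had H3K27me3 at 26.5 (rank 11 of 5560) with EZH2 at 11.7 and SUZ12 at 15.5. Foxf2 had H3K27me3 at 25.1 with EZH2 at 11. Foxb1, a factor of the brainstem and hypothalamus, had H3K27me3 at 24.8 with EZH2 at 14.2 and SUZ12 at 11.4. The weakest EZH2 among these genes was at Foxn4, a retinal factor, with EZH2 at 3.73, SUZ12 at 5.63 and H3K27me3 at 10.4. The other members without an active feature lay between these extremes in EZH2. Foxd3, a neural crest factor, had EZH2 at 11.4, SUZ12 at 13.7 and H3K27me3 at 24.0. Foxd4 had EZH2 at 10.8, SUZ12 at 6.31 and H3K27me3 at 22.8, and Foxb2 had 10.1, 12.4 and 15.1. Foxa2, the endodermal relative of Foxa1, had EZH2 at 5.84, SUZ12 at 7.43 and H3K27me3 at 19.1. Foxp2 and Foxo6, the developmental members of subfamilies whose other genes were mostly active, had EZH2 at 9.60 and 7.87, SUZ12 at 6.54 and 8.08, and H3K27me3 at 10.7 and 15.8.

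Polycomb peaks at these genes were broad and the genes are short. The median width of the widest peak at the start was 7.31 kb for EZH2, 7.78 kb for SUZ12 and 19.5 kb for H3K27me3, beside 2.02, 2.62 and 7.34 kb for all genes with the 3 features. The whole gene body lay inside a single H3K27me3 peak at 18 of the 24 members, inside a single SUZ12 peak at 14 and inside a single EZH2 peak at 12. Among genes of at most 6 kb with the 3 features, this held for H3K27me3 at 17 of 19 members (89.5%) beside 68% of all 434 such genes, and for EZH2 at 57.9% beside 29.7%.

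Neighbouring members formed 3 clusters with gaps below 100 kb. On chromosome 8, Foxf1, Foxc2 and Foxl1 lie within a region that, with 10 kb on each side, spans 66.3 kb (121074386 to 121140644). H3K27me3 peaks covered 64.1% of it, SUZ12 peaks 53.2% and EZH2 peaks 52.7%. Foxc2 and Foxl1 shared 1 H3K27me3 peak of 19.5 kb (fold enrichment 13.6), the only peak that 2 members had in common at their starts. Their EZH2 and SUZ12 peaks were separate. Foxc2, a factor of lymphatic vessels, had EZH2 at 9.12 and SUZ12 at 13.0. Foxl1, a factor of gut mesenchyme, had EZH2 at 11.2 and SUZ12 at 6.75. Foxf1, which acts in lung and gut mesoderm, had EZH2 at 11.8, SUZ12 at 10.7 and H3K27me3 at 6.95.

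The Polycomb cover on chromosome 8 was interrupted within Mthfsd, a gene of folate metabolism between Foxf1 and Foxc2. H3K4me3 (32.2), H3K27ac (16.4), p300 (4.15) and N-MYC (4.12) were called at its end towards Foxc2 with an EZH2 peak of 400 bp and fold enrichment 6.29, while SUZ12 and H3K27me3 were not called between 20.237 and 36.780 kb of the region. The Foxd2 and Foxe3 region on chromosome 4 (39.8 kb) was covered by H3K27me3 over 87.1% and by EZH2 over 38.2%, with 1 H3K4me3 peak of 2.08 kb at Foxd2. The Foxq1 and Foxf2 region on chromosome 13 (93.2 kb) was covered by H3K27me3 over 45.9% and by EZH2 over 23.6%. In them, Foxd2 had EZH2 at 10.7, SUZ12 at 12.7 and H3K27me3 at 24.0, and Foxe3, a lens factor, had 10.3, 9.52 and 17.6. Foxq1 had EZH2 at 9.83, SUZ12 at 8.42 and H3K27me3 at 23.0, while Foxf2 had 11, 10.4 and 25.1. Neither of these 2 regions held a peak of N-MYC, p300 or H3K27ac.

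**Figure D3:**
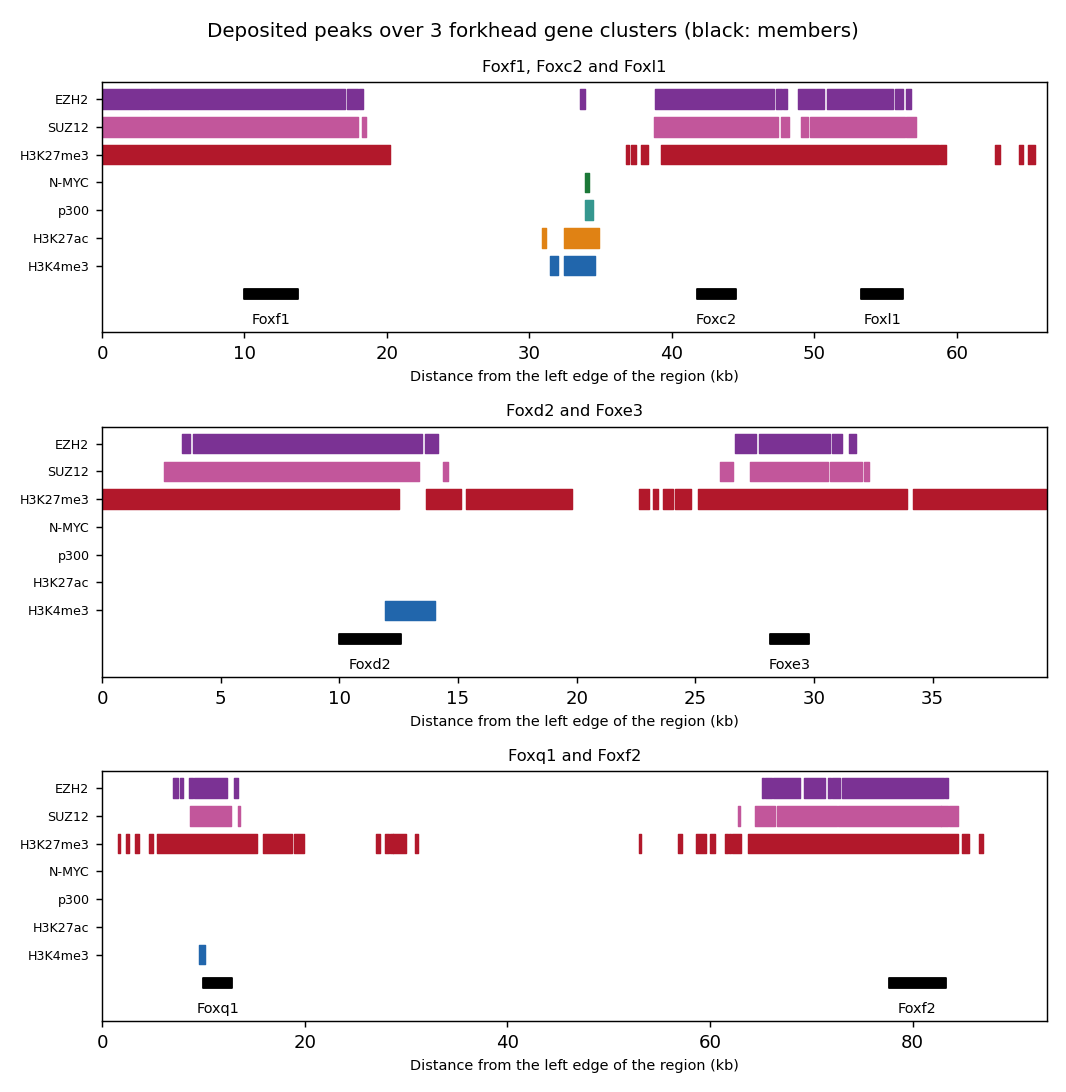
Deposited peaks of the 7 lists (coloured blocks, 1 row per list) over 3 clusters of neighbouring forkhead genes, with 10 kb added on each side; the horizontal axis is the distance in kb from the left edge and black bars are the members. EZH2, SUZ12 and H3K27me3 blocks overlap each member, and the active lists appear between Foxf1 and Foxc2 and as H3K4me3 alone at Foxd2 and Foxq1.

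A further 5 developmental members, or 11.4% of the family against 4.76% of all genes, had the 3 Polycomb features together with an active one. At Foxc1, Foxd2 and Foxq1 the only active feature was H3K4me3, with fold enrichments of 6.84, 12.2 and 4.42. Foxj1, the master factor of motile cilia, had EZH2 at 6.75, SUZ12 at 3.47, H3K27me3 at 6.79, p300 at 6.90 and H3K4me3 at 7.38, with neither H3K27ac nor N-MYC. Its H3K27me3 peak ended at 116335270, just short of the H3K4me3 peak that began at 116335281. The EZH2 and SUZ12 peaks of Foxj1 did overlap that H3K4me3 peak. At Foxa3, a liver and gut factor, EZH2 was 6.99, SUZ12 4.86 and H3K27me3 11.6, with p300 at 3.52, H3K27ac at 8.69 and H3K4me3 at 23.1. The strongest Polycomb and active peaks at Foxa3 did not overlie each other, but a second, weaker EZH2 peak (4.64) lay under the H3K4me3 and H3K27ac peaks. The Polycomb summits lay 303 to 482 bp downstream of the start, the H3K4me3 and H3K27ac summits at -1137 and -1147 bp, upstream of it, and the start of Sympk lies within 1 kb.

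The remaining 7 developmental members did not carry EZH2. Foxi1, Foxi2 and Foxs1 had H3K27me3 alone, at 7.88, 7.55 and 5.59, a class that held 8.90% of all genes. Their H3K27me3 peaks were 3.01, 3.04 and 1.82 kb wide. Foxh1, a partner of SMAD proteins in early embryos, had p300 at 7.58, H3K27ac at 9.96 and H3K4me3 at 24.5. The latter class, active marks without EZH2, held 2 members (Foxh1 and Foxo4) and 11.5% of all genes. Ends of Kifc2 and Ppp1r16a lie within 1 kb of an end of Foxh1, so its active peaks cannot be assigned to it alone.

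No peak was called at the start of 4 members, Foxn1, Foxr1, Foxr2 and Foxp3, or 9.09% against 29.1% of all genes. Foxn1 had no EZH2, SUZ12, N-MYC or p300 over its body either. It held 6 narrow H3K27me3 peaks of up to 7.03 within the gene, H3K27ac peaks of 3.12 and 2.84 and an H3K4me3 peak of 5.52. Foxr2 held 19 H3K27me3 peaks over its body, from 200 to 918 bp wide and up to 6.86, with no EZH2 or SUZ12. Foxr1 had no peak over its body.

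Reading the whole gene body in place of the start left the totals similar, though some members were exchanged. EZH2 was found over the body of 35 members (background 47.0%), SUZ12 over 26 (14.9%), H3K27me3 over 31 (30.1%), N-MYC over 9 (35.3%), p300 over 13 (42.0%), H3K27ac over 15 (57.9%) and H3K4me3 over 18 (54.0%). N-MYC was lost at Foxo1 and Foxm1, which left 1 of 3 haematopoietic members with it, and was gained at Foxj2. p300 was lost at Foxa3 and gained at Foxj2. H3K4me3 was lost at Foxa3 and gained at Foxn1, which also gained H3K27ac. The 2 members that gained SUZ12 were Foxp1 and Foxp4, which also gained H3K27me3, as did Foxn1 and Foxr2.

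At Foxp1 and Foxp4 these peaks were small and lay on the flank of a strong active start. At Foxp1 a SUZ12 peak of 435 bp (3.62) lay 1349 bp and an H3K27me3 peak of 286 bp (4.30) lay 2301 bp downstream of the start, inside the H3K4me3 peak of 4.55 kb. At Foxp4 SUZ12 peaks of 590 bp (4.11) and 401 bp (2.96) lay 1985 and 1232 bp downstream, and an H3K27me3 peak of 257 bp (3.21) lay 1445 bp downstream. EZH2 was called over each of these SUZ12 peaks. At Foxp1 the SUZ12 peak lay inside the EZH2 peak of the start (7.61). A further EZH2 peak of 310 bp (3.83) lay between the SUZ12 and H3K27me3 peaks. At Foxp4 the SUZ12 peak of 401 bp overlapped the EZH2 peak of the start (7.33), and that of 590 bp held an EZH2 peak of 305 bp (3.83). These calls were noticed after the values were seen. With every RefSeq start site read, Foxp1 counts as carrying the 3 Polycomb features, since a start is listed 1.75 kb inside the gene.

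Within gene bodies, H3K27ac separated the long active members from one another. Foxp1 held 45 H3K27ac peaks over 597 kb, or 0.753 per 10 kb, and Foxo3 held 40 over 94.9 kb, or 4.22 per 10 kb. Foxk1 and Foxp4 held 27 and 24 peaks, or 4.46 and 4.17 per 10 kb. By contrast Foxo1 held 2 and Foxj3 held 1 in bodies of 81.8 and 89.5 kb. Over all 11 members active with EZH2 the median was 0.801 H3K27ac peaks per 10 kb, below the 1.10 of all genes of the class. The order turned among long genes, where over the 10 members of at least 20 kb the median was 15.0 peaks and 0.902 per 10 kb, beside 3 and 0.546 for 3477 such genes. p300 and N-MYC peaks were few in these bodies, with medians of 0.248 and 0.206 per 10 kb beside 0.292 and 0.205.

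**Figure D4:**
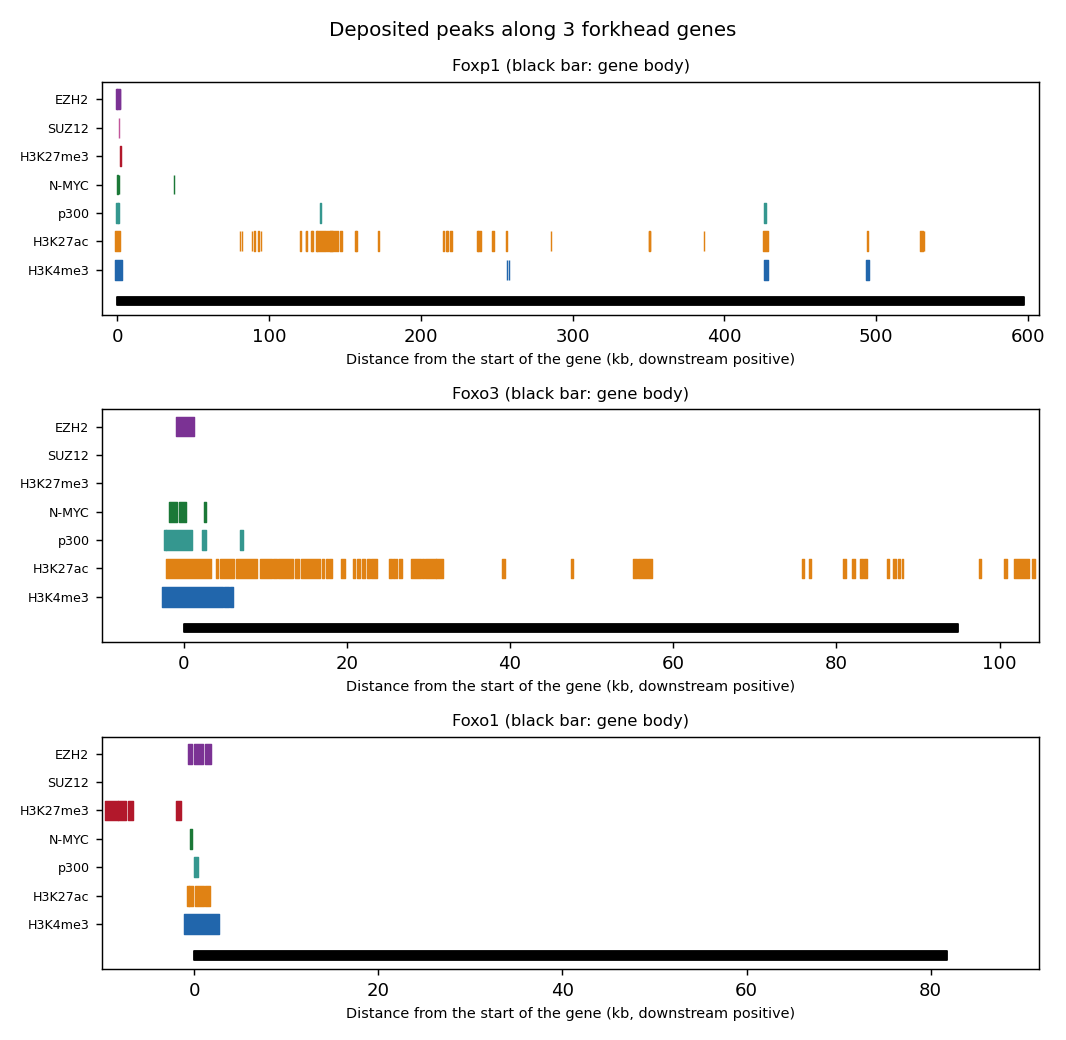
Deposited peaks of the 7 lists (coloured blocks, 1 row per list) along Foxp1, Foxo3 and Foxo1, by distance in kb from the start of the gene with downstream positive; the black bar is the gene body and 10 kb are added on each side. EZH2 peaks lie no farther than 2.119 kb downstream of the start in these 3 genes. Within the gene body, H3K27ac peaks are spread along Foxo3 (40 peaks) and lie near the start in Foxo1 (2 peaks). Further H3K27ac peaks are drawn upstream of Foxo1 and beyond the end of Foxo3. In Foxp1 (45 peaks) the H3K27ac peaks lie at the start and far inside the gene, with none between 1.704 and 80.898 kb.

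The active members held 17 H3K4me3 peaks in their bodies outside the start window, in 8 genes. H3K27ac overlapped 14 of them, beside 59.6% of 3230 such peaks over all active genes. p300 overlapped 6 (23.8%), N-MYC 5 (14.5%), EZH2 1 (11.7%), SUZ12 0 (0.867%) and H3K27me3 0 (1.42%). The 1 with EZH2 lay in Foxn3, 171.1 kb from the start, with EZH2 at 5.43, N-MYC at 5.14, p300 at 6.64, H3K27ac at 8.84 and H3K4me3 at 31.6. At Foxp1 internal peaks 427.0 and 494.0 kb downstream had H3K4me3 at 26.6 and 18.0 and H3K27ac at 15.8 and 7.05, without EZH2 or N-MYC, and p300 (5.77) lay on the former. The latter covers a listed transcript start.

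Promoter composition was then set beside the classes for the 28 members with a RefSeq promoter entry. When several starts were listed, the most upstream was used. Members active with EZH2 had a median of 34.0 CpG in the 300 bases (8 members), beside 24.0 for all genes of the class. Members with Polycomb features alone had 22 (11 members) beside 20, and those with Polycomb and an active feature had 26 (3 members) beside 26. The 2 members with H3K27me3 alone had 5 and 6 CpG beside a class median of 6.00, and the 4 with no peak had from 3 to 16 beside 2. The lowest of these, Foxr2, was read at a start listed 4.21 kb inside the gene, where H3K27me3 was called.

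Foxk2 had the most CpG, 59, and Foxj3 had 42. Foxn3 stood low in its class with 6, but its listed start lies 113.59 kb inside the gene, away from the peaks at its 5′ end. Among the Polycomb members Foxb2 and Foxe3 had 10 CpG each, and Foxi3 had 31. The E-box letters CACGTG, the same on both strands and the preferred site of MYC proteins, were present in 0 of the 7 sequenced members with N-MYC at the start, and in 12.8% of the 5535 genes with N-MYC and a promoter entry. The windows of Foxn3 and Foxp1 lie outside every N-MYC peak. Among windows that meet one, CACGTG was present in 0 of 5 members and 13.7% of 5274 genes. The 1 member window with CACGTG was that of Foxd3, which had no N-MYC peak. The forkhead motif GTAAACA, searched on both strands, was present in the window of Foxa1 alone (3.57% of members), beside 2.93% of all genes. A match of letters is not a binding site.

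**Figure D5:**
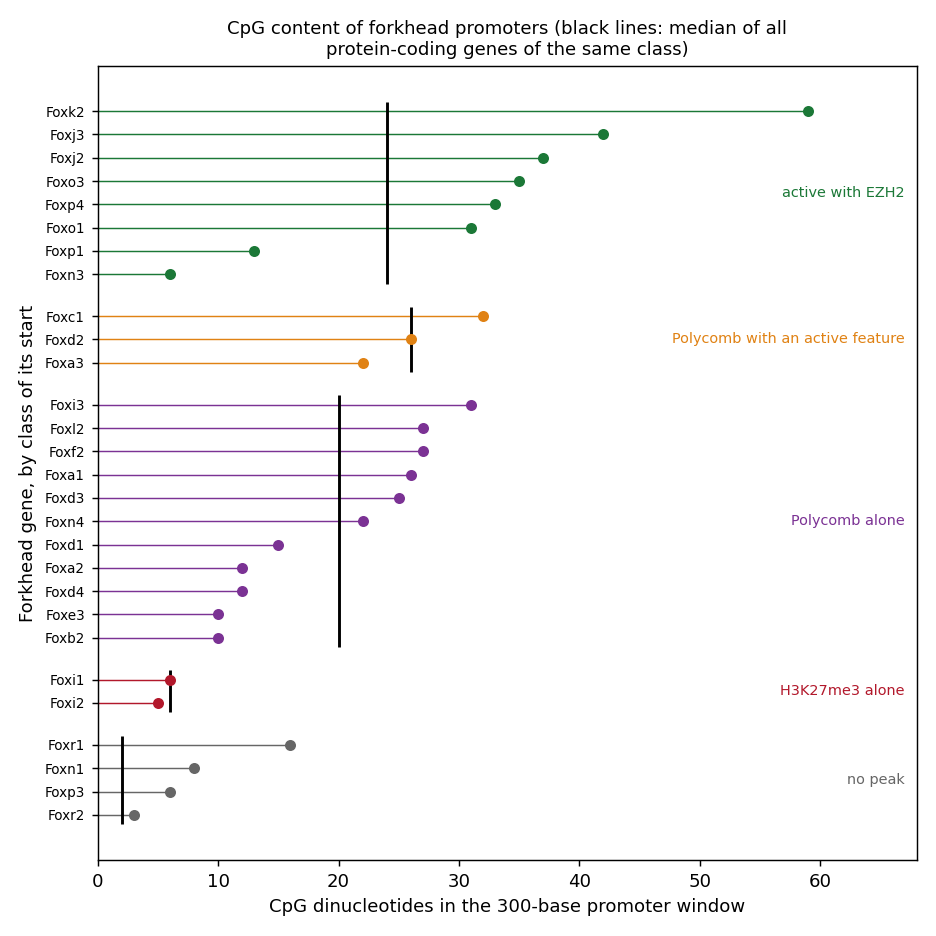
Number of CpG dinucleotides in the 300-base promoter window (horizontal axis) of the 28 forkhead genes with a RefSeq entry, grouped by the class of their start; black lines give the median of all protein-coding genes of the same class. Members active with EZH2 reach 59 CpG, while members with H3K27me3 alone or no peak have 3 (Foxr2, at a start 4.21 kb inside the gene) to 16.

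Genes around the forkhead factors were read in the same way from chosen lists, and the shares of all genes are repeated beside the counts. Of 14 partners and targets of FOXM1, which act in mitosis, all 14 had H3K4me3 (48.9% of all genes), H3K27ac (49.8%) and p300 (37.4%), and 13 had EZH2 (43.4%). N-MYC was called at 7 (31.0%), and SUZ12 (13.2%) and H3K27me3 (25.4%) at 0. Lin9, a subunit of the complex that brings FOXM1 to mitotic genes, had EZH2 at 10.9 and N-MYC at 7.41. Plk1, a mitotic kinase, had EZH2 at 6.39 and no N-MYC. Cenpf, a kinetochore protein, was the 1 without EZH2.

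Targets of FOXO proteins in lymphocytes were mixed. Of 12 genes, 9 had H3K4me3 (48.9% of all genes), 6 EZH2 (43.4%), 5 N-MYC (31.0%), 4 H3K27me3 (25.4%) and 3 SUZ12 (13.2%), and the EZH2, N-MYC and H3K27me3 counts lay near these shares. Cdkn1b, a cell-cycle inhibitor, had EZH2 at 7.77 and N-MYC at 6.70 without SUZ12 or H3K27me3. Klf2, a regulator of T-cell homing, had EZH2 at 10.1, SUZ12 at 9.88 and H3K27me3 at 14.2 together with H3K4me3 at 7.02 and p300 at 5.77. Il7r, the receptor chain for interleukin 7, had H3K4me3 at 9.30 and H3K27ac at 7.31 alone.

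Of 11 upstream regulators and partners of FOXO proteins, 5 were active with EZH2 (29.5% of all genes), among them Akt1, Akt2, Pik3r1 and Sirt1, and none carried SUZ12 (13.2%). Sirt1, a deacetylase that acts on FOXO proteins, had EZH2 at 6.22, N-MYC at 9.90 and H3K4me3 at 34.8. With every listed transcript start read, Pdpk1 and Usp7 joined them and the count was 7.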

How the data were processed

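Sequencing reads were processed by the authors, and the submitters' processing notes name FastQC, Bowtie2, SAMtools, MACS2 and deepTools and the builds mm10 and GRCm38, with no versions, roles or parameters. Whether the inputs served as controls is not given in the sources used here. Each immunoprecipitation had 1 deposited peak list. Per peak, the authors deposited a fold enrichment (a linear ratio over background), used here as given. They deposited p-values and q-values on the −log10 scale, and every list ended near a −log10 q of 2. The deposited score only restates the q-value and was not used. Read depth is unknown.

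Gene positions and promoter sequences came from RefSeq GRCm38.p6. The start of a gene was its annotated 5′ end where the promoter table gave its strand (17491 of 21883 genes), and both ends otherwise. Counts of genes are enumerations, with the share over all genes as background. The overlap code was tested on simulated data. Python 3.11.15, pandas 2.3.3 and numpy 2.4.6 were used. Named were, by rule, all haematopoietic and widely expressed or lymphoid members, the 5 developmental members highest in EZH2, those with H3K4me3, N-MYC or p300, those in clusters and those without peaks. Other members were named after their values were seen, to account for the family. Alternatives changed the window, peak threshold, list length, summit rule, start site, groups and strand. Foxm1 has no promoter entry. Members, groups and gene lists were chosen with earlier results of these data known. Some genes counted in the totals are not reported here by name.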

Additional observations from a re-analysis of the deposited data

How the results depend on the processing

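The 11 counts behind the report were recomputed under 14 alternatives, and 127 of 145 values stayed within 1.5 times the reported count. With the peak summit required inside the window, developmental members with all 3 Polycomb features numbered 8, members with H3K27me3 13, and developmental members with H3K4me3 and H3K27ac 1. The last count was also 1 with a window of 0.5 kb, 0 without members that have another gene's start in the window, and 11 when every member but Foxo1, Foxp1 and Foxm1 was taken as developmental. Without members that have another start in the window, H3K27ac was left at 9. Haematopoietic members with all 3 Polycomb features numbered 1 (Foxp1) with a window of 5 kb, over the gene body and at any listed transcript start. With the 28 members of known strand alone, the counts were 22 for EZH2, 14 for SUZ12, 16 for H3K27me3, 8 for p300, 9 for H3K27ac and 11 for H3K4me3, and developmental members numbered 14 with the Polycomb features and 1 with both active marks. The cause of these shifts was not tested, except that fewer members were read. The alternatives on strand, shared peaks and neighbouring starts, and the restriction of CACGTG to windows that meet an N-MYC peak, were chosen after seeing the data. No paired analysis was possible because each antibody had 1 library. Lists that end at the authors' threshold limit what a missing peak can show.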
